A study of Mus musculus with 6 samples.

Results

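The genes of the cardiac thin filament and its control were examined by RNA-seq in adult cardiomyocytes (CMs) that lacked *Cpt1b*, which encodes the muscle form of the enzyme that admits long-chain fatty acids to mitochondrial oxidation. They are a set of 10 genes chosen by symbol, namely the troponins *Tnni3*, *Tnni1*, *Tnnt2*, *Tnnt1* and *Tnnc1*, the tropomyosins *Tpm1* and *Tpm2*, the pointed-end proteins *Tmod1* and *Lmod2*, and the kinase *Tnni3k*. The deposited table lists 16448 genes and has rows for 9 of the 10. *Tnni1*, the fetal form of troponin I, was not analysed here. All 9 passed the filter on low values, which kept 11364 genes in the whole table. Ventricular CMs came from C57BL/6 mice aged 8 to 12 weeks, 3 Cpt1bcKO samples and 3 CtrlCre samples, after enzymatic perfusion of the heart and removal of the atria. In Cpt1bcKO mice, floxed *Cpt1b* was deleted by a Cre transgene under the αMHC promoter, which drives Cre in CMs from embryonic stages on, and CtrlCre littermates carried the same Cre with wild-type *Cpt1b*, so that Cre is common to both groups. The labels name a sample per group and number and do not say whether a sample holds cells of a single mouse, so the *P* values below measure the spread between these samples.

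The thin filament is the actin strand of the sarcomere. Tropomyosin lies along it and covers the sites that myosin binds, and the troponin complex holds tropomyosin in place until calcium binds. Troponin C is the calcium sensor, troponin I the inhibitory subunit and troponin T the subunit that ties the complex to tropomyosin. Tropomodulin caps the pointed end of the filament, and leiomodin allows the filament to elongate there. The developing heart uses slow skeletal troponin I, encoded by *Tnni1*, and replaces it with cardiac troponin I, encoded by *Tnni3*, during maturation, and the fetal heart also holds more β-tropomyosin, encoded by *Tpm2*, beside α-tropomyosin, encoded by *Tpm1*. *Tnnt1*, slow skeletal troponin T, is an alternative to cardiac troponin T, encoded by *Tnnt2*, in the same place of the complex.

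In brief, the adult genes *Tnni3*, *Tpm1* and *Lmod2* and the kinase gene *Tnni3k* were lower in every Cpt1bcKO sample than in any CtrlCre sample, at 50.1%, 57.2%, 65.5% and 82.7% of the control level, as were 9.60% of all genes tested, whereas *Tnnt2* and *Tnnc1* overlapped between the groups. After scaling each sample to its sum of nuclear genes without rRNA, *Tnni3*, *Lmod2* and *Tnni3k* overlapped and *Tpm1* did not. None of the 9 genes passed the test after adjustment over all genes. In a fit that took the sex of the samples into account, *Tnni3*, *Tpm1*, *Tmod1* and *Lmod2* did, as did 2.91% of all genes in the lower direction. Fibroblast markers were higher in the same Cpt1bcKO samples, and their part in these values was not tested. The slow or fetal genes *Tnnt1* and *Tpm2* were hardly expressed in either group.

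Because *Tpm1*, *Tmod1* and *Lmod2* followed *Tnni3* across samples, the stretches upstream of their RefSeq transcription starts are shown first (GRCm38.p6, read 5′ to 3′ on the strand of the gene). All 9 genes had an entry, in 10 windows of 250 bases before a start. Short motifs were searched on both strands. They were CANNTG, the E box of basic helix-loop-helix factors, GGAATG, the M-CAT element of TEAD factors, GATAA, the core of GATA factor motifs, TATAAA, and, by name, the CArG box of SRF and the MEF2 motif. *Tnni3* (chr7:4522529-4522694, minus strand) and *Lmod2* (chr6:24597521-24597761, plus strand) are shown as genes whose groups did not overlap, and *Tnnt2* (chr1:135836084-135836333, plus strand) and *Tnnc1* (chr14:31208062-31208311, plus strand) as their partners with smaller differences, leaving out any bases annotated as an exon of the gene or a neighbour. For *Tpm1* (chr9:67049254-67049279, minus strand), *Tmod1* (chr4:46039049-46039074, plus strand) and *Tnni3k* (chr3:155055420-155055445, minus strand), only the surroundings of GGAATG are shown. The *Tpm1* and *Tmod1* sites lie before the RefSeq start, but all 26 bases of each are annotated as exon in GENCODE vM21, which has transcripts that start further upstream. Capitals mark CANNTG and GGAATG or its reverse complement (a CANNTG is cut off at the end of the *Tnni3k* site), and no motif overlapped another in these stretches.
Tnni3 upstream: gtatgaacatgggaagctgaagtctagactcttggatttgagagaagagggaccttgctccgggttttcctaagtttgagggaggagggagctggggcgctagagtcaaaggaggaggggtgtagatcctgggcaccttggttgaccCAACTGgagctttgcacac
Lmod2 upstream: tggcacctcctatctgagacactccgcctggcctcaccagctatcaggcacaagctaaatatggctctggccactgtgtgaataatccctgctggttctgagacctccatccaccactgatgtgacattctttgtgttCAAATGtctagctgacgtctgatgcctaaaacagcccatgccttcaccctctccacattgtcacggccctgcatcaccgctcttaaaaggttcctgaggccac
Tnnt2 upstream: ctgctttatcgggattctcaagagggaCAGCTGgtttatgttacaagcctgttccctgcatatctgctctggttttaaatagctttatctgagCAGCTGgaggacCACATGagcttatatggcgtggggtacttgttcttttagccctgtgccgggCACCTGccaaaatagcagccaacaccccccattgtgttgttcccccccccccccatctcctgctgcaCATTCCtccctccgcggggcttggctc
Tnnc1 upstream: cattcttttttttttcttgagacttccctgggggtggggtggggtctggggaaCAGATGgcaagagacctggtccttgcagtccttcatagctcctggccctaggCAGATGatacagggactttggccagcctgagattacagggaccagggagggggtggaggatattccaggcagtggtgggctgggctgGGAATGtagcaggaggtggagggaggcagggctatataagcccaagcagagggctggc
Tpm1 site: gctgtcctaaGGAATGcggtcgcccc
Tmod1 site: gggaaccacaCATTCCcctgcctccg
Tnni3k site: ccttgcatgaCATTCCattcagCACT

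GGAATG was found in the windows of 5 of the 9 genes, *Tnnt2*, *Tnnc1*, *Tpm1*, *Tmod1* and *Tnni3k*, and in 12.6% of all 32851 mouse windows of the same length. In *Tnnt2*, the gene in whose promoter M-CAT elements are well known, it lay 27 to 22 bases before the first of the annotated starts, and in *Tnnc1* 58 to 53 bases before the start. The windows of *Tnni3* and *Lmod2* held no GGAATG. The E box CANNTG was present in 8 of the 9 genes and in 66.2% of all windows, GATAA in *Tnnt2* alone (22.6% of all windows) and TATAAA in *Tnnt1* alone (12.4%). The CArG box and the MEF2 motif were found in 0 of the 9 genes, against 1.47% and 2.92% of all windows. These counts are per gene and the percentages per window, and *Tnnt2* had more than a single window among the 10. A match describes letters and not binding, and genes with GGAATG were found both among those that overlapped between the groups and among those that did not.

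The values, called normalized counts here, are rounded read counts that the authors had first scaled by size factors. They summed to 13393411 to 31722217 per sample, of which the mitochondrial rRNA gene *mt-Rnr2* took 63.2% to 64.6% in the CtrlCre samples and 61.8%, 72.6% and 80.8% in Cpt1bcKO samples 1, 2 and 3. Cpt1bcKO samples 2 and 3 thus stood apart, and the part of this in the differences below was not tested. The nuclear genes other than rRNA summed to 3551692, 3470695 and 3438589 in CtrlCre samples 1 to 3. In Cpt1bcKO samples 1 to 3 they summed to 3146414, 3219308 and 3315777, each below every CtrlCre sum. In Cpt1bcKO sample 3, the low values were spaced by about 1.30 per read, so that a value near 10 rests on few reads. *Cpt1b*, the deleted gene, had 1861, 893 and 1443 normalized counts in CtrlCre samples 1 to 3 and 211, 353 and 285 in Cpt1bcKO samples 1 to 3 (log2 fold change −2.27 with a standard error of 0.267, limma adjusted *P* = 0.00338). By *Xist* and Y-linked genes, number 1 was a female and numbers 2 and 3 were males in both groups. Sex is not in the labels, and with a single female in each group its effect cannot be separated from that of the sample. Together, the 9 genes took 2.998%, 1.96% and 2.54% of the sum without mitochondrial-encoded and rRNA genes in the CtrlCre samples and 1.99%, 1.49% and 1.99% in the Cpt1bcKO samples. Fewer CMs in a preparation and less RNA of a gene per CM cannot be told apart in such bulk samples.

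*Tnni3*, cardiac troponin I, had 22892, 12303 and 15698 normalized counts in CtrlCre samples 1, 2 and 3 and 11778, 5834 and 8102 in Cpt1bcKO samples 1, 2 and 3. The lowest control lay just above the highest Cpt1bcKO sample, and within each group sample 1 was highest and sample 2 lowest. On average this was 16964 ± 5407 against 8571 ± 3000 (SD, n = 3 each). For *Tnni3* the log2 fold change (log2 FC) was −0.996 (95% confidence interval −1.62 to −0.37, standard error (SE) 0.281), with an unadjusted *P* = 0.00503 and an adjusted *P* = 0.136 by limma. Between the female samples *Tnni3* differed by −0.96, and between the means of the males by −1.02 on the log2 scale. With sex as a covariate, the SE was 0.146 and the adjusted *P* in limma 0.00372. Leaving out each sample in turn gave log2 FCs between −1.26 and −0.75, and all 6 of these fits had an unadjusted *P* below 0.05. Scaling each sample to its sum of nuclear genes without rRNA gave a log2 FC of −0.88. Cpt1bcKO sample 1 then lay above CtrlCre sample 2, so that the groups overlapped. *Tnni3* (ENSMUSG00000035458) lies on the minus strand of chromosome 7 from 4518305 to 4522528 in the deposited table (mm10), with *Tnnt1* 2300 bases further on, and shares 86 exon bases, 4.17% of its own, with *Dnaaf3* on the same strand, a gene with a mean of 14.3 and 5.67 normalized counts.

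*Tnnt2*, cardiac troponin T, had 21884, 16328 and 23087 normalized counts in the CtrlCre samples and 14970, 14385 and 24159 in the Cpt1bcKO samples. The highest of the 6 values belonged to a Cpt1bcKO sample and the groups overlapped. The means were 20433 ± 3606 and 17838 ± 5482 (SD, n = 3 each), and the log2 FC was −0.22 (95% confidence interval −0.74 to 0.29, adjusted *P* = 0.726 by limma). It was −0.087 without Cpt1bcKO sample 2, −0.46 without Cpt1bcKO sample 3 and −0.11 after scaling each sample to its sum of nuclear genes without rRNA. The interval includes both no difference and a decrease of the size estimated for *Lmod2*. The female samples differed by −0.55 and the males by −0.059, and the adjusted *P* with sex as a covariate was 0.592. *Tnnt2* (ENSMUSG00000026414, chromosome 1, 135836354 to 135852260, plus strand) is spliced differently in fetal and adult hearts, and values per gene cannot separate these forms. The same holds for the exons of *Tpm1*.

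*Tnnc1*, the troponin C of heart and slow muscle, had 16033, 10144 and 10964 normalized counts in the CtrlCre and 11026, 9688 and 10262 in the Cpt1bcKO samples. The Cpt1bcKO samples lay close together (mean 10325 ± 671, SD, n = 3), and CtrlCre sample 1 was far above all the others (control mean 12380 ± 3190, SD, n = 3). The log2 FC was −0.23 (95% confidence interval −0.66 to 0.19, adjusted *P* = 0.636 by limma), and −0.033 without CtrlCre sample 1, −0.36 without CtrlCre sample 2 and −0.12 after scaling to the sum of nuclear genes. The females differed by −0.54 and the males by −0.081. *Tnnc1* (ENSMUSG00000091898) lies on the plus strand of chromosome 14 from 31208312 to 31211729, and no exon base of it is shared with the opposite gene *Nisch*.

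*Tnnt1*, slow skeletal troponin T (ENSMUSG00000064179, chromosome 7, 4504570 to 4516004, minus strand), had 36, 11 and 14 normalized counts in the CtrlCre and 10, 11 and 25 in the Cpt1bcKO samples. These values are near the level at which single reads count. The groups overlapped, and the log2 FC of −0.32 (95% confidence interval −1.47 to 0.83, adjusted *P* = 0.832 by limma) became 0.17 without CtrlCre sample 1. The females differed by −1.75 and the males by 0.40. The interval includes no difference and changes in both directions, so these values do not decide whether *Tnnt1* changed.

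*Tpm1*, α-tropomyosin (ENSMUSG00000032366, chromosome 9, 67022590 to 67049406, minus strand), had the highest control mean of the set, with 35121, 23378 and 30957 normalized counts in the CtrlCre and 18989, 13662 and 18359 in the Cpt1bcKO samples. Each Cpt1bcKO sample was below every control. The means were 29819 ± 5954 and 17003 ± 2911 (SD, n = 3 each). The fitted log2 FC was −0.81 (SE 0.210, 95% confidence interval −1.27 to −0.34), with an unadjusted *P* = 0.00313 and an adjusted *P* = 0.105 by limma. The difference was −0.89 between the females and −0.76 between the males, and the adjusted *P* was 0.0139 with sex as a covariate (SE 0.154). It lay between −0.97 and −0.66 when each sample was left out in turn, with an unadjusted *P* below 0.05 in all 6 fits and an adjusted *P* from 0.0526 to 0.460.

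*Tpm2*, β-tropomyosin (ENSMUSG00000028464, chromosome 4, 43514711 to 43523595, minus strand), was at 9, 11 and 30 normalized counts in the CtrlCre and 43, 24 and 14 in the Cpt1bcKO samples. It was the only one of the 9 genes with a higher estimate in Cpt1bcKO CMs, with a log2 FC of 0.72 (95% confidence interval −0.44 to 1.88, adjusted *P* = 0.587 by limma). The groups overlapped, and the estimate was 0.40 without CtrlCre sample 1, 0.32 without Cpt1bcKO sample 1, 1.22 without CtrlCre sample 3 and 1.10 without Cpt1bcKO sample 3. The females, with the lowest and the highest of the 6 values, differed by 2.14 and the males by 0.0058.

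*Lmod2*, the cardiac leiomodin (ENSMUSG00000029683, chromosome 6, 24597762 to 24605414, plus strand), had 9119, 4727 and 5653 normalized counts in the CtrlCre and 4616, 3664 and 4048 in the Cpt1bcKO samples. The groups did not overlap, although the gap between CtrlCre sample 2 and Cpt1bcKO sample 1 was narrow. The means were 6500 ± 2315 and 4109 ± 479 (SD, n = 3 each). The fitted log2 FC was −0.61 (SE 0.226, 95% confidence interval −1.11 to −0.11), with an unadjusted *P* = 0.0215 and an adjusted *P* = 0.253 by limma, and an adjusted *P* = 0.0283 with sex as a covariate. The females differed by −0.98 and the males by −0.42. The log2 FC was −0.50 after scaling each sample to its sum of nuclear genes without rRNA, and the groups then overlapped. Without CtrlCre sample 1 the log2 FC was −0.34, and the unadjusted *P* was below 0.05 in 4 of the 6 fits that left out a sample, but not without CtrlCre sample 1 or without Cpt1bcKO sample 2.

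*Tmod1*, the tropomodulin of CMs (ENSMUSG00000028328, chromosome 4, 46038935 to 46116032, plus strand), had 867, 583 and 635 normalized counts in the CtrlCre and 626, 458 and 453 in the Cpt1bcKO samples. Cpt1bcKO sample 1 exceeded CtrlCre sample 2, so the groups overlapped. The means were 695 ± 151 and 512 ± 98.5 (SD, n = 3 each), and the log2 FC was −0.43 (SE 0.192, 95% confidence interval −0.86 to −0.0074, unadjusted *P* = 0.0468 and adjusted *P* = 0.351 by limma). The differences within sex were −0.47 and −0.42, and the adjusted *P* with sex as a covariate was 0.0448. The log2 FC was −0.26 without CtrlCre sample 1, and the unadjusted *P* stayed below 0.05 in 2 of the 6 fits that left out a sample. *Tmod1* shares 32.6% of its exon bases with *Tstd2* on the opposite strand, which had a mean of 63.0 and 52.7 normalized counts, and whether counting used the strand is not given in the sources used here.

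*Tnni3k*, a cardiac kinase named for its interaction with troponin I (ENSMUSG00000040086, chromosome 3, 154786299 to 155055407, minus strand), had 506, 581 and 449 normalized counts in the CtrlCre and 441, 392 and 432 in the Cpt1bcKO samples. The groups did not overlap, but CtrlCre sample 3 and Cpt1bcKO sample 1 almost met. The log2 FC was −0.27 (SE 0.150, 95% confidence interval −0.61 to 0.060), with an unadjusted *P* = 0.0983 and an adjusted *P* = 0.450 by limma. It was −0.18 without CtrlCre sample 2 and −0.16 after scaling each sample to its sum of nuclear genes without rRNA. Under this scaling the groups overlapped. The differences were −0.20 between the females and −0.31 between the males, and the adjusted *P* with sex as a covariate was 0.265.

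**Figure D1:**
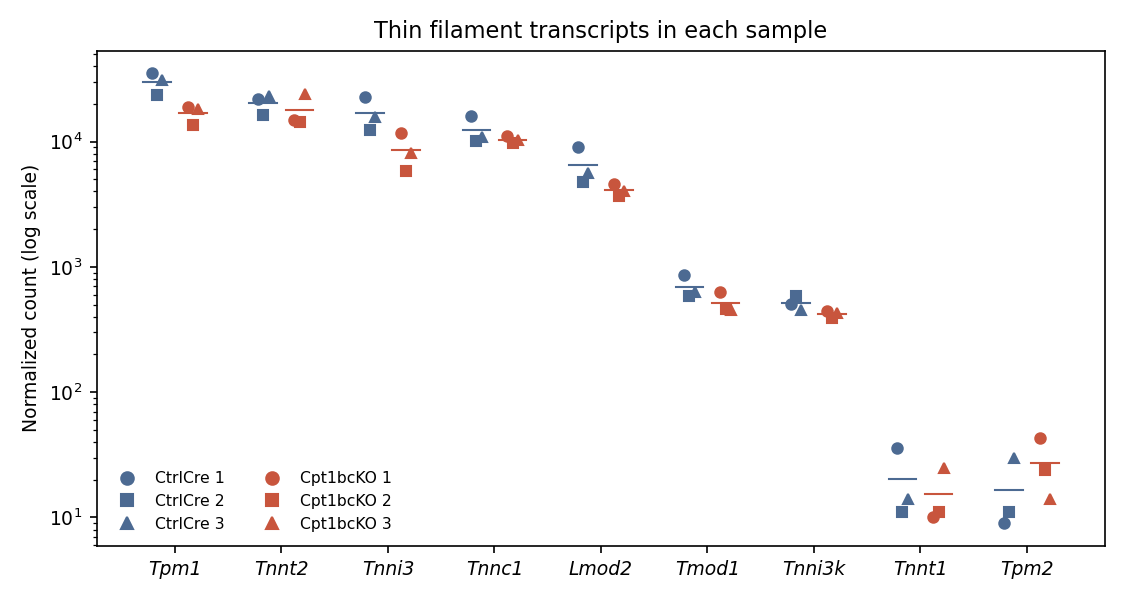
Normalized counts of the 9 genes (vertical axis, log scale) in each of the 3 CtrlCre samples (blue) and 3 Cpt1bcKO samples (red), with a symbol for each sample and a line at the group mean. *Tnni3*, *Tpm1*, *Lmod2* and *Tnni3k* do not overlap between the groups, and *Tnnt1* and *Tpm2* stay at 43 normalized counts or below.

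Of the 9 genes, 0 had an adjusted *P* below 0.05 in either direction in limma, whereas 1.57% of all genes tested did (178 of 11364). An unadjusted *P* below 0.05 with a lower value in Cpt1bcKO CMs was reached by 4 of the 9, *Tnni3*, *Tpm1*, *Tmod1* and *Lmod2*, and by 7.22% of all genes. This count was 3 of the 9 after scaling each sample to its sum of nuclear genes without rRNA, with 505 lower and 1221 higher genes in place of 821 and 757. It was 2 of the 9 without the trend of the prior variance, where 689 of all 11364 genes were lower. It was also 2 of the 9 without CtrlCre sample 1 (565 of 11160 genes) or without Cpt1bcKO sample 2 (538 of 11020 genes). The groups did not overlap, with Cpt1bcKO lower, in 4 of the 9, *Tnni3*, *Tpm1*, *Lmod2* and *Tnni3k*, and in 9.60% of all genes. Of the named genes, *Tpm1* alone stayed without overlap after scaling each sample to its sum of nuclear genes without rRNA. With sex as a covariate, 4 of the 9 were called lower at an adjusted *P* below 0.05 in limma, against 2.91% of all genes. Estimates were below 0 in 8 of the 9 genes and in 50.2% of all genes, and the median log2 FC was −0.32 over the 9 genes and −0.0013 over all genes. The median of the 9 genes lay between −0.55 (without CtrlCre sample 2) and −0.22 (without Cpt1bcKO sample 2) when each sample was left out in turn, and 7 of the 9 were below 0 without CtrlCre sample 1. Scaling to the sum of nuclear genes moved the median of all genes to 0.11 and that of the 9 genes to −0.21, with 8 of the 9 still below 0, and under this scaling 103 genes were called higher and 74 lower, where the deposited scaling gave 75 and 103. CtrlCre sample 1 was the highest of the 6 samples in 6 of the 9 genes and Cpt1bcKO sample 2 the lowest in 6.

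**Figure D2:**
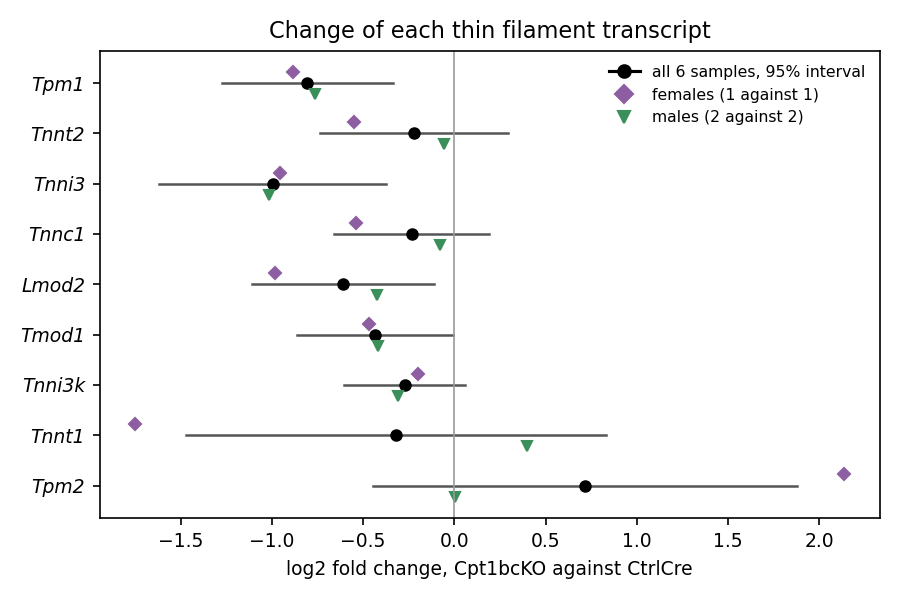
Log2 FC of Cpt1bcKO against CtrlCre for the 9 genes (horizontal axis), with black points for the limma estimate from all 6 samples, lines for its 95% confidence interval, diamonds for the difference between the female samples and triangles for that between the means of the males. The intervals of *Tnni3*, *Tpm1*, *Lmod2* and *Tmod1* lie below 0, and the female and male differences are close together for *Tnni3* and *Tmod1* and far apart for *Tnnt1* and *Tpm2*.

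To compare genes with each other, normalized counts were divided by the length of the annotated exons, which counts rare long isoforms and so can lower the level of a gene with many forms. In normalized counts per exon kilobase, *Tnnc1* stood highest in the CtrlCre samples, with a mean of 11893 (9744 to 15402), followed by *Tnni3* with 8223 (5964 to 11097), *Tpm1* with 4598 (3605 to 5416), *Lmod2* with 3289 (2392 to 4615) and *Tnnt2* with 2636 (2106 to 2978). Neighbours among these 5 genes overlapped in their ranges, except *Tnni3* and *Tpm1*. *Tmod1* and *Tnni3k* were far lower, with 176 and 156 per exon kilobase, and *Tnnt1* and *Tpm2* lower again with 9.23 and 5.73. In the Cpt1bcKO samples, *Tnnc1* was at 9919 per exon kilobase (9306 to 10592) and *Tnni3* at 4155 (2828 to 5709), so their ranges no longer met, and *Tnni3* and *Tpm1* at 2622 (2107 to 2928) now did. *Tnnt2*, at 2301 (1856 to 3116), and *Lmod2*, at 2080 (1854 to 2336), stood in the opposite order but overlapped.

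The slow or fetal gene was compared with its adult partner as a log2 ratio of the normalized counts in each sample. The log2 ratio of *Tnnt1* to *Tnnt2* had a mean of −10.07 ± 0.75 in CtrlCre and −10.17 ± 0.28 in Cpt1bcKO CMs (SD, n = 3 each; exact two-sided permutation test, *P* = 0.9). The difference of −0.097 became 0.33 without CtrlCre sample 1 and −0.36 without CtrlCre sample 3. The log2 ratio of *Tpm2* to *Tpm1* was −11.78, −10.93 and −9.96 in the CtrlCre samples and −8.75, −9.09 and −10.26 in the Cpt1bcKO samples. It was higher by 1.52 on average in Cpt1bcKO CMs, but CtrlCre sample 3 exceeded Cpt1bcKO sample 3 (exact two-sided permutation test, *P* = 0.2, adjusted 0.4 over 6 pairs). Even in the sample with the most *Tpm2* it made up a small part of the tropomyosin signal. With 3 samples against 3, the smallest *P* that this test can give is 0.1. The ratio of *Tnni1* to *Tnni3* was not analysed here.

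For comparison, pairs of developmental and adult isoforms in other parts of the sarcomere were treated in the same way. The log2 ratio of *Acta1*, skeletal α-actin, to *Actc1*, cardiac α-actin, was −5.26, −4.42 and −4.91 in the CtrlCre and −0.46, −1.02 and −1.66 in the Cpt1bcKO samples, a difference of 3.82 with no overlap (exact two-sided permutation test, *P* = 0.1, adjusted 0.3). Near-identical actin genes share sequence, and reads on several regions had been left out by the authors. The log2 ratio of *Myh7* to *Myh6*, the β and α myosin heavy chains, differed by 1.40, again without overlap (*P* = 0.1 in the exact permutation test, adjusted 0.3), and by 0.84 without CtrlCre sample 2. The myosin light chain pairs *Myl7* to *Myl2* and *Myl4* to *Myl3* overlapped, with differences of 0.89 and 0.65 (*P* = 0.4 and 0.5 in the exact permutation test, adjusted 0.6 for both). With each sample left out in turn, the first lay between 0.20 (without CtrlCre sample 1) and 1.5 (without CtrlCre sample 3), and the second between −0.16 (without CtrlCre sample 1) and 1.29 (without Cpt1bcKO sample 1). The differences between these pairs were not tested against each other.

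Ratios within the filament were computed for 8 pairs that were chosen after the values had been seen. Their *P* values in the permutation test therefore describe these pairs and add no independent support to the values of the single genes. The log2 ratio of *Tnni3* to *Tnnc1*, the inhibitory to the calcium-binding subunit, was 0.51, 0.28 and 0.52 in the CtrlCre samples and 0.095, −0.73 and −0.34 in the Cpt1bcKO samples. Every Cpt1bcKO value lay below every control value, and the mean difference was −0.76 (exact two-sided permutation test, *P* = 0.1, adjusted 0.4). The log2 ratio of *Tpm1* to *Tnnt2* was 0.68, 0.52 and 0.42 in the CtrlCre and 0.34, −0.074 and −0.40 in the Cpt1bcKO samples, lower by 0.58 on average and without overlap (exact permutation test, *P* = 0.1, adjusted 0.4). The ratio of *Tnni3* to *Tnnt2* differed by −0.77 but overlapped (exact permutation test, *P* = 0.3, adjusted 0.6). For *Tnnc1* to *Tnnt2* the difference was −0.012, and for *Lmod2* to *Tmod1*, the elongating to the capping protein of the pointed end, it was −0.18 (*P* = 1.0 and 0.3 in the exact permutation test). The other pairs overlapped as well, *Tnni3* to *Tpm1* with a difference of −0.19, *Lmod2* to *Tnnt2* with −0.39 and *Tmod1* to *Tnnt2* with −0.21. The log2 ratios of *Tnnc1*, *Lmod2* and *Tmod1* to *Tnnt2* were lowest in Cpt1bcKO sample 3 (−1.24, −2.58 and −5.73). Without this sample the differences for *Tnnc1* and *Tmod1* turned positive.

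**Figure D3:**
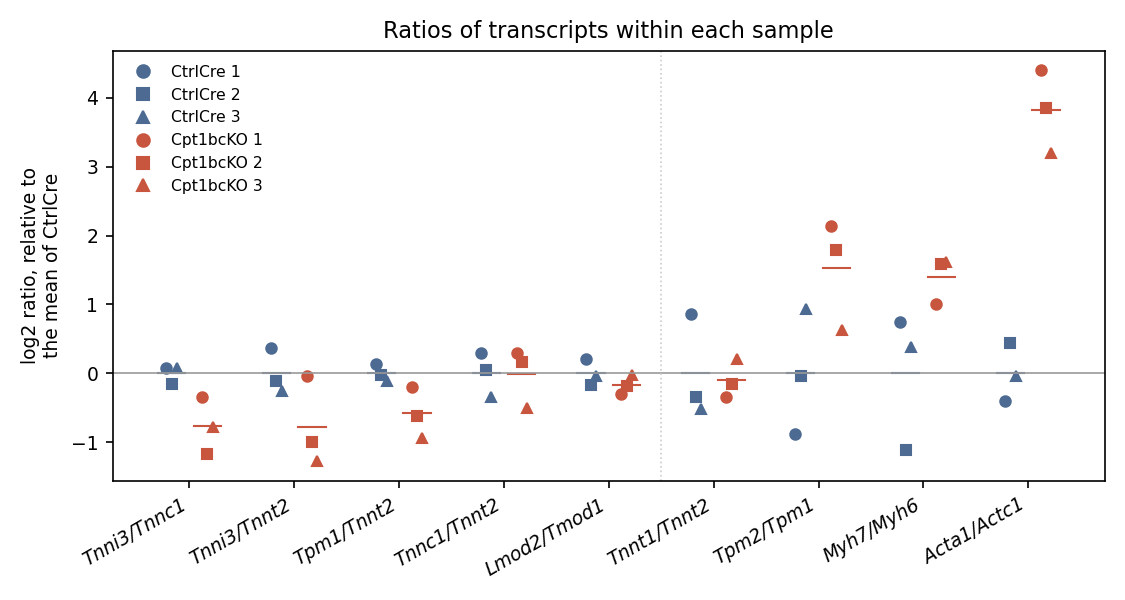
Log2 ratios of gene pairs in each sample relative to the CtrlCre mean of that ratio (vertical axis), for 5 pairs of thin filament genes left of the dotted line and 4 isoform pairs right of it, with a symbol for each sample and a line at the group mean (at 0 for CtrlCre). *Acta1* to *Actc1* separates the groups by 3.82, *Tnni3* to *Tnnc1* and *Tpm1* to *Tnnt2* are lower in all Cpt1bcKO samples, and *Tnnt1* to *Tnnt2* overlaps. The 5 pairs of thin filament genes were chosen after the values had been seen.

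Across the 6 samples, *Tnni3* ran most closely with *Trmt5*, *Dhdh*, *Mxi1*, *Cdadc1* and *Cyhr1* among the 6797 genes whose mean was 50 or more (Pearson's r of log2 values 0.993, 0.992, 0.992, 0.991 and 0.990). Their log2 FCs were −0.29, −0.65, −0.86, −0.18 and −0.17, and none had an adjusted *P* below 0.05 in limma. Of the thin filament genes, *Tpm1* came closest to *Tnni3* (r = 0.962, rank 73), followed by *Tmod1* (0.952, rank 110) and *Lmod2* (0.936, rank 183), and *Tnnc1* (0.822, rank 821), *Tnni3k* (0.611) and *Tnnt2* (0.442) were further away. These values describe 6 samples that differ in group and in sex, and both enter r.

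Other genes of the same families were at low levels, apart from *Lmod3*, a leiomodin of striated muscle. Of 10 such genes, 7 have a row (*Tnni2*, *Tnnt3* and *Tnnc2*, the fast skeletal troponins, were not analysed here) and 6 passed the filter, 3 with a lower and 3 with a higher estimate and a median log2 FC of 0.0076. *Tmod4*, the skeletal tropomodulin, had 62, 68 and 76 normalized counts in the CtrlCre and 46, 32 and 54 in the Cpt1bcKO samples, with no overlap and an estimate of −0.66 on the log2 scale (SE 0.251, unadjusted *P* = 0.0252 and adjusted *P* = 0.273 by limma). *Tpm3*, *Tpm4*, *Tmod2*, *Tmod3* and *Lmod3* had an unadjusted *P* above 0.05, and *Lmod1* was below the filter.

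Among 29 genes that build, anchor, remodel or transcriptionally control the thin filament, 18 had a lower and 11 a higher estimate, with a median log2 FC of −0.16. Of these, 8 lower genes and 1 higher gene had an unadjusted *P* below 0.05, against 7.22% lower and 6.66% higher genes among all genes tested, and a single gene had an adjusted *P* below 0.05 in limma (1.57% of all genes). This was *Klhl41*, an adaptor that stabilizes nebulin and related proteins, which had 433, 276 and 280 normalized counts in the CtrlCre and 163, 143 and 144 in the Cpt1bcKO samples. Its log2 FC was −1.10 (SE 0.200, adjusted *P* = 0.0236 by limma, and 0.00191 with sex as a covariate). *Myocd*, the coactivator myocardin, which works with SRF on CArG boxes, had 444, 459 and 490 normalized counts in the CtrlCre and 248, 342 and 289 in the Cpt1bcKO samples, with a log2 FC of −0.67 (SE 0.160, adjusted *P* = 0.0737 by limma, and 0.0134 with sex as a covariate). *Srf* itself overlapped between the groups, with a log2 FC of 0.026.

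The listed genes *Neb*, *Nebl* and *Nrap* encode filament-binding proteins of the nebulin family. None of the 3 passed the adjusted test, and in each the groups did not overlap, as in 9.60% of all genes with Cpt1bcKO lower. *Neb* had 149, 156 and 110 normalized counts in the CtrlCre and 75, 108 and 82 in the Cpt1bcKO samples (log2 FC −0.64, adjusted *P* = 0.209 by limma). *Nebl* and *Nrap* had log2 FCs of −0.35 and −0.33 (adjusted *P* = 0.273 and 0.300 in limma). *Cap2*, which recycles actin monomers, and *Fhod3*, a formin of the cardiac sarcomere, were also without overlap, with log2 FCs of −0.45 and −0.39 (adjusted *P* = 0.233 and 0.277 in limma). With sex as a covariate, the adjusted *P* in limma was 0.0465 for *Cap2* and 0.108 for *Fhod3*. After scaling each sample to its sum of nuclear genes without rRNA, *Neb* and *Fhod3* overlapped between the groups, and *Nebl*, *Nrap* and *Cap2* did not. In the other direction, *Wdr1*, a cofactor of cofilin in filament disassembly, had 503, 446 and 577 normalized counts in the CtrlCre and 692, 756 and 810 in the Cpt1bcKO samples, with a log2 FC of 0.57 (SE 0.149, adjusted *P* = 0.107 by limma, and 0.0284 with sex as a covariate). The cofilins *Cfl1* and *Cfl2* had estimates of −0.031 and −0.12 and overlapped between the groups.

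**Figure D4:**
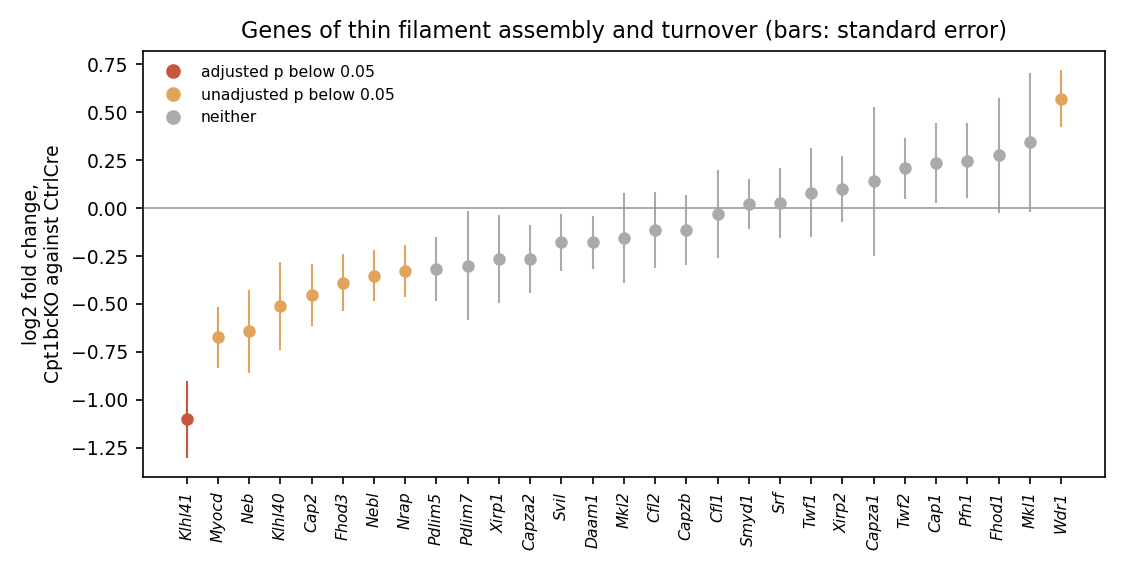
Log2 FC of Cpt1bcKO against CtrlCre (vertical axis) for the 29 genes of thin filament assembly and turnover in the order of the estimate, with bars of 1 SE from limma and colours for the unadjusted and adjusted *P*. *Klhl41* (−1.10) is the gene with an adjusted *P* below 0.05, and *Wdr1* (0.57) is the gene on the higher side with an unadjusted *P* below 0.05.

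Markers of CMs and of other cells were read in the same samples. Of 10 CM markers, 9 had a lower estimate, with a median log2 FC of −0.37, and their summed level was 578697 to 698750 normalized counts in the CtrlCre and 385249 to 619699 in the Cpt1bcKO samples. An unadjusted *P* below 0.05 was found for 2 of them, the calcium handling genes *Pln* and *Atp2a2*, with log2 FCs of −0.85 and −0.60, and for 7.22% of all genes in this direction. Their adjusted *P* in limma was 0.0678 and 0.209, and 0.00152 and 0.0338 with sex as a covariate, where 2.91% of all genes were called lower. *Mybpc3*, cardiac myosin-binding protein C, was the exception, with a log2 FC of 0.33 (adjusted *P* = 0.410 by limma).

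All 7 fibroblast markers tested had higher estimates at an unadjusted *P* below 0.05, against 6.66% of all genes in this direction, with a median log2 FC of 1.12 and a summed level of 498 to 785 in the CtrlCre and 1108 to 1338 in the Cpt1bcKO samples. The collagen gene *Col1a1* had 45, 69 and 64 normalized counts in the CtrlCre and 162, 141 and 141 in the Cpt1bcKO samples, and *Lum*, which encodes a collagen-binding proteoglycan, 30, 26 and 23 against 81, 66 and 75 (adjusted *P* = 0.0143 for both in limma). With sex as a covariate, *Col1a1*, *Lum*, *Col1a2* and *Col3a1* passed the adjusted test in limma, against 2.14% of all genes in the higher direction. All 8 endothelial markers had a higher estimate (median 0.34), with sums of 1464 to 3116 and 2832 to 3287 and the lowest sum in CtrlCre sample 1, the sample with the highest *Tnni3*, *Tpm1*, *Tnnc1*, *Tmod1* and *Lmod2*. Among them, *Flt1* had an unadjusted *P* = 0.0169 and an adjusted *P* = 0.228 by limma (log2 FC 0.71). The part of these cells in the lower thin filament values was not tested. Macrophage and leukocyte markers summed to 93 to 160 and 126 to 137.

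Muscle of other kinds was examined because it also expresses *Tnnt1* and *Tpm2*. Smooth muscle and mural cell markers summed to 7932 to 10420 and 8110 to 10778, of which 5956 to 9118 were *Des*, the desmin gene that CMs also express. Without *Des* the sums were 1302, 1976 and 2652 in the CtrlCre and 1984, 1889 and 1612 in the Cpt1bcKO samples and overlapped. Of the 8 markers tested, 6 had a higher estimate, *Des* with a log2 FC of 0.00031 among them. *Tagln* and *Cnn1* stayed at 13 normalized counts or below, whereas *Myh11* lay between 14 and 217 and *Rgs5*, a pericyte marker, between 463 and 1402, both lowest in CtrlCre sample 1 and overlapping between the groups. *Acta2*, smooth muscle actin, was lower in all Cpt1bcKO samples, with a log2 FC of −1.20 (adjusted *P* = 0.0835 by limma, and 0.00325 with sex as a covariate). It overlapped between the groups after scaling each sample to its sum of nuclear genes without rRNA. Atrial markers summed to 290 to 418 and 582 to 808. The higher sum came from *Nppa*, which encodes atrial natriuretic peptide and is also induced in stressed ventricular CMs, with 177, 93 and 144 normalized counts in the CtrlCre and 683, 452 and 384 in the Cpt1bcKO samples (log2 FC 1.87, adjusted *P* = 0.00917 by limma). *Myl7*, the atrial light chain, lay between 2 and 19, and *Myl4* overlapped. *Myl1*, counted in this list although it encodes a light chain of fast skeletal muscle, had a log2 FC of −0.78 (adjusted *P* = 0.218 by limma). Its normalized counts were 46, 71 and 68 in the CtrlCre and 29, 43 and 34 in the Cpt1bcKO samples. The skeletal genes *Myh1*, *Myh2* and *Myh4* were at 7 or below. Of the same list, *Atp2a1* had 3, 3 and 16 normalized counts in the CtrlCre and 8, 2 and 23 in the Cpt1bcKO samples. *Ckm*, which was also listed as a CM marker, lay between 1298 and 2671. At 9 to 43 normalized counts, the cell type that the reads of *Tnnt1* and *Tpm2* came from was not tested.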

How the data were processed

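RNA of isolated CMs was sequenced by the authors as stranded total RNA libraries (single-end). Per the labels and the methods of the study, reads were trimmed with Trimmomatic 0.36, aligned with STAR 2.5.4b to mm10 (GRCm38.p5) and counted per gene with featureCounts 1.6.0, leaving out reads on several genes or regions. The deposited values are scores, namely these counts divided by DESeq2 size factors (version 1.14.1) and rounded by the authors to whole numbers, so they are not raw counts and were tested with limma. The fold changes, p-values and group means of the authors in the same table were not used. The annotation release and the strand setting of the counting are not given in the sources used here.

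Values were taken as log2(value + 1), which understates changes of low genes, and genes that reached 10 in 3 or more samples were tested with limma 3.58.1 in R 4.3.3 (lmFit, eBayes with trend), adjusting *P* by Benjamini–Hochberg over 11364 genes. Ratios used an exact permutation test and adjustment over the pairs of a family. Summaries and plots used Python 3.11.15 with pandas 2.3.3, scipy 1.17.1 and matplotlib 3.10.9, and the steps were tested on simulated data. Exon lengths came from GENCODE vM21 and upstream sequences from RefSeq. All members of the set are named. Genes of the lists of related genes are named with values at an adjusted *P* below 0.05, or at an unadjusted one below 0.05 without overlap, as are *Cpt1b* and the 5 genes most like *Tnni3*. *Srf*, *Cfl1*, *Cfl2*, *Mybpc3* and the marker genes named beside the sums were chosen after their values were seen. The members and lists were chosen with earlier results of these data known. Alternatives were scaling, filters, pseudocounts (0.5 and 5), sex, a replicate block, no trend, and leaving out each sample.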

Additional observations from a re-analysis of the deposited data

How the results depend on the processing

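The 134 values of single genes under 15 alternative settings kept direction and side of the threshold in 124 cases. In 9 an adjusted *P* fell below 0.05, and *Tnnt1* reversed to 0.17 without CtrlCre replicate 1. In limma, 178 genes were called, 574 with sex as a covariate, 41 without the trend of the prior variance, 1578 at an unadjusted *P* below 0.05, and 40 to 305 when each sample was left out. Without Cpt1bcKO replicate 3, *Tnnt1* was at −0.71. Of the thin filament genes 0 were called, 4 with sex, 4 at an unadjusted *P* below 0.05, and 0 to 1 with a sample left out (*Tnni3* without Cpt1bcKO replicate 1, adjusted *P* = 0.0260 by limma). Blocking on the replicate number, 603 genes and 4 thin filament genes were called (*Tnni3*, *Tpm1*, *Tmod1* and *Lmod2*), and all 178 genes were among the 603. The labels give a number and not what it marks, although same-numbered samples also share the sex read from *Xist*, and deviations from the group means correlated at r = 0.376, 0.255 and 0.0684 for same-numbered samples across genes. Samples numbered 3 correlated better with samples numbered 2. The spacing of low values limits what can be said of *Tnnt1* and *Tpm2*, and *Tpm2* has no value under a filter of 10 in every sample. The *Tnni1* ratio was not run.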
